A study of Eriocheir sinensis with 6 samples.

Results

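Chromosome CM024108.1 of the Chinese mitten crab (Eriocheir sinensis) held 145 of the 18729 genes with an expression value in muscle, and these genes were followed across the molt. Members were all predicted genes whose identifier names this chromosome, placed in the order of the number that ends the identifier, which ran from 10 to 304. The identifiers begin with evm.TU., which is left out here, so that evm.TU.CM024108.1.102 is written CM024108.1.102. Expression was measured by RNA-seq as FPKM, fragments per length of gene and size of library, in 3 libraries of post-molt muscle, taken after the old shell is shed, and in 3 of pre-molt muscle, taken before it. According to the study's methods each library came from a different juvenile crab. The labels give healthy, untreated farm animals of 8.41 ± 1.47 g kept at 20 °C under natural light for both stages. The chromosome was selected on the FPKM values of these same 6 libraries, because a stretch of neighbours from CM024108.1.89 to CM024108.1.103 was low, mostly near-silent, in pre-molt and high in post-molt muscle. That difference is therefore given as a description, without a test.

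Crustaceans grow by shedding the shell under the control of steroid hormones, and claw muscle wastes before the molt and is rebuilt after it. The study's methods describe the tissue taken as muscle of the walking legs, not of the claw. Neighbouring genes of a chromosome can share regulatory elements, and gene families that arose by tandem duplication lie side by side, so that stretches of genes that change together are known from many genomes. The files paired no functional name with any gene of this chromosome, and 0 identifiers matched the RefSeq gene table, so the roles of the members are left out. For the same reason no marker gene of muscle could be looked up to check the tissue.

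Recovered totals ran from 4168810 to 5117364 fragments for post-molt and from 5810273 to 6768582 for pre-molt libraries. Post-molt replicate 3 stood apart from the other post-molt libraries on the second principal component, which held 17.4% of the variance, and its Spearman correlations across genes with them were 0.765 and 0.784, against 0.817 between those 2. In bulk muscle, fewer cells of a type and less RNA per cell cannot be told apart.

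Within the stretch the switch was sharp. Of its 15 order numbers 11 were listed (CM024108.1.89, CM024108.1.90, CM024108.1.92 and the 8 from CM024108.1.96 to CM024108.1.103), and the remaining 4 were not analysed here. Summed over the 11 genes, the level was 35950, 48814 and 37646 FPKM in the post-molt libraries but 14.4, 13.3 and 26.9 FPKM in the pre-molt ones. The 11 genes held 84.9% ± 2.68 of all FPKM of the chromosome after the molt and 0.357% ± 0.208 before it (SD, n = 3). By fragments, which are not scaled to length, the shares were 65.4% ± 5.29 and 0.134% ± 0.0793. Of all fragments of a library they took 0.332% ± 0.0547 after the molt and 0.000379% ± 0.000245 before it.

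**Figure D1:**
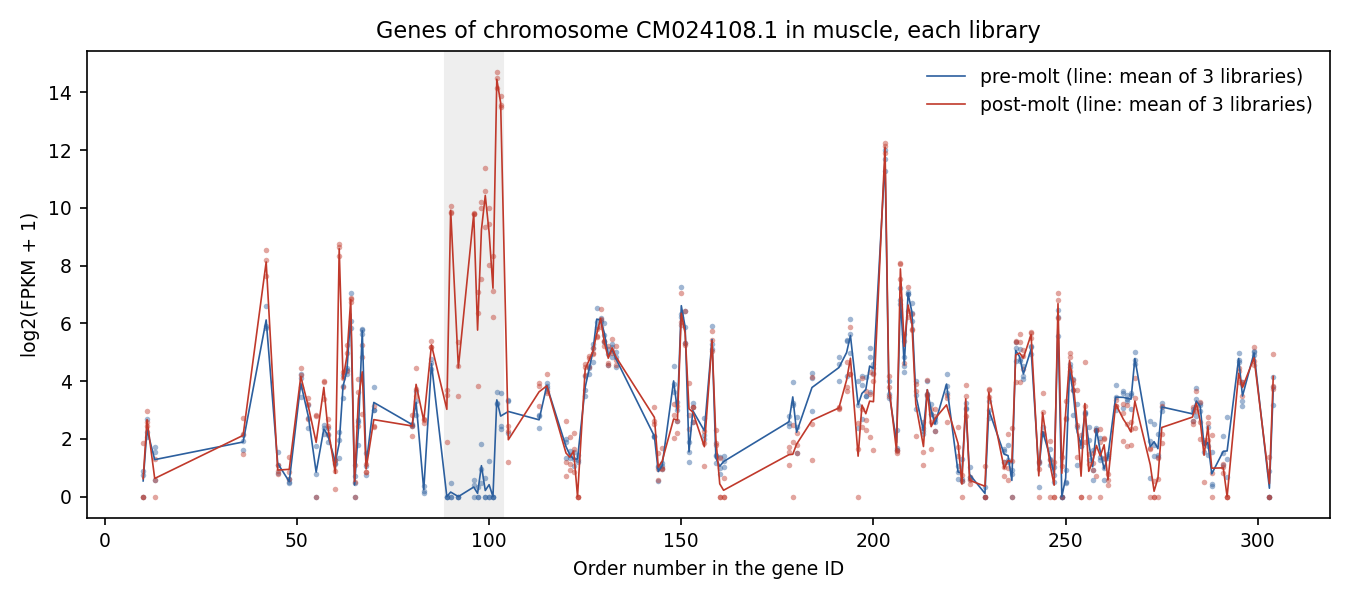
Expression of the 145 listed genes along chromosome CM024108.1, as log2(FPKM + 1) against the order number of the gene, with 1 point per library and lines through the mean of the 3 post-molt (red) and 3 pre-molt (blue) libraries. The lines run close together along most of the chromosome and part in the grey band, which marks the stretch, where the post-molt sum was 40803 FPKM and the pre-molt sum 18.2 FPKM.

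The highest levels lay at the far end of the stretch, in a pair of short genes. CM024108.1.102, a model of 234 bases, measured 18306, 26769 and 23165 FPKM in post-molt replicates 1 to 3 and 8.53, 8.13 and 11.2 FPKM in pre-molt replicates 1 to 3. Its means were 22747 ± 4247 FPKM and 9.29 ± 1.68 FPKM (SD, n = 3), a ratio of 2448. CM024108.1.103, of 201 bases, measured 12177, 14907 and 11504 FPKM against 4.41, 4.06 and 11.1 FPKM, a ratio of 1977. These were among the most abundant transcripts of post-molt muscle: CM024108.1.102 ranked 25th, 18th and 45th of all listed genes in the 3 libraries, and CM024108.1.103 ranked 41st, 51st and 91st. Together they made up 87.4% ± 4.06 (SD, n = 3) of the FPKM of the stretch in post-molt libraries. They were also the only genes of the stretch with at least 3 fragments in every pre-molt library. Reads were 150 bases from each end and both gene models are shorter than a read pair laid end to end, so that their FPKM depends strongly on the length assigned. By fragments CM024108.1.102 had 7538, 7484 and 6334 and CM024108.1.103 had 4307, 3580 and 2702 in post-molt replicates 1 to 3.

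CM024108.1.90, CM024108.1.96 and CM024108.1.99 combined a high post-molt level with 1 to 3 pre-molt fragments. CM024108.1.90 measured 1083, 921 and 906 FPKM in post-molt libraries, and its only pre-molt fragment lay in replicate 2, at 0.385 FPKM. The ratio of pooled fragments was 9135, with a 95% exact interval of 1638 to 360923 that covers counting error only. CM024108.1.96 was nearly level across the post-molt crabs, at 896, 889 and 875 FPKM, and had 0, 1 and 2 fragments in pre-molt replicates 1 to 3, a ratio of 3174 (exact interval 1085 to 15402). CM024108.1.99 measured 1522, 2648 and 652 FPKM, with 1 fragment in pre-molt replicate 1 and none in the other pre-molt libraries, a ratio of 8481 (exact interval 1521 to 335116). With so few pre-molt fragments the order of these ratios was not resolved, since the intervals overlap. The size of all ratios given here depends on the library sizes behind the FPKM, which were a smaller share of the recovered fragments after the molt than before it: per recovered fragment in all, the ratios of the stretch were 2.18 to 2.59 times smaller, at 3943 for CM024108.1.90, 1370 for CM024108.1.96, 3661 for CM024108.1.99 and 1013 for CM024108.1.102.

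CM024108.1.98 and CM024108.1.100 had a like post-molt level and a few more pre-molt fragments. CM024108.1.98 measured 1016, 1165 and 184 FPKM after the molt and 0.919, 0.375 and 2.51 FPKM before it, a ratio of means of 622. CM024108.1.100 measured 696, 1009 and 261 FPKM after the molt, and all 4 of its pre-molt fragments came from replicate 3, at 1.36 FPKM, a ratio of means of 1445. In both genes the highest pre-molt value lay in pre-molt replicate 3 and the lowest post-molt value in post-molt replicate 3, which are different crabs.

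The other members reached lower levels. CM024108.1.101 measured 138, 319 and 73.4 FPKM in post-molt muscle and CM024108.1.97 measured 81.9, 135 and 13.3 FPKM. CM024108.1.92 measured 22.2, 40.2 and 10.3 FPKM, and CM024108.1.89, the first and, at 1925 bases, the longest of the stretch, 11.8, 10.4 and 2.67 FPKM. CM024108.1.89, CM024108.1.92 and CM024108.1.101 had no fragment in any pre-molt library. Against an assumed floor of 3 fragments over the 3 pre-molt libraries their ratios were 70.0, 35.3 and 325. The exact 95% intervals began lower, at 58.9, 26.9 and 256, and have no upper end. CM024108.1.97 had a single pre-molt fragment and a ratio of 787 (exact interval 140.0 to 31219).

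**Figure D2:**
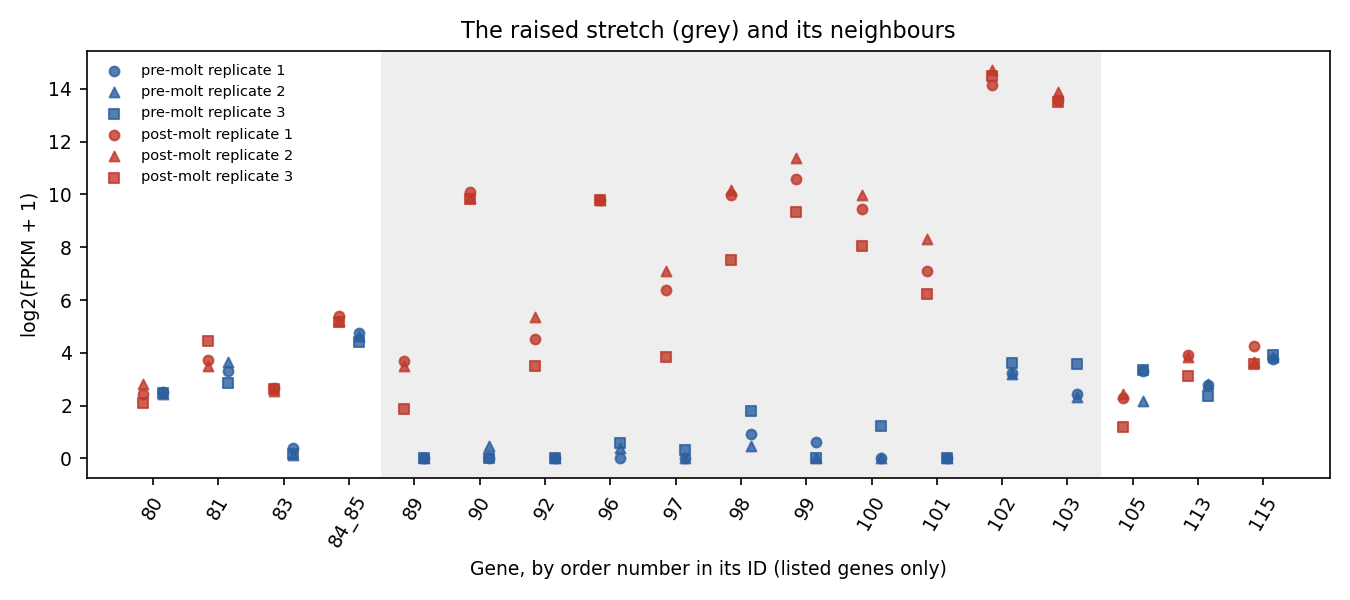
Each library's log2(FPKM + 1) for the stretch (grey band) and the listed genes on either side of it, with post-molt libraries in red, pre-molt libraries in blue and a marker shape for each replicate. In the band every post-molt value lies above every pre-molt value of the same gene, and the post-molt points of CM024108.1.102 and CM024108.1.103 stand highest, at means of 22747 and 12863 FPKM.

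Pre-molt levels of the stretch were low but not alike. CM024108.1.102 and CM024108.1.103, at 9.29 and 6.51 FPKM, were near the pre-molt median of 6.69 FPKM for the rest of the chromosome, while the other 9 genes had 23 pre-molt fragments between them. Of the 33 pre-molt values (11 genes in 3 libraries), 18 were at 0 fragments, 8 at 1 to 3 fragments and 7 above that. The pre-molt libraries held 70 fragments of these genes in all, of which 47 came from CM024108.1.102 and CM024108.1.103, while the post-molt libraries held 45190. Pre-molt replicate 3 was the highest pre-molt library for 6 of the 8 genes with any pre-molt fragment. The lowest post-molt value by fragments, in CM024108.1.92 of replicate 3, rested on 4 fragments. The groups did not overlap in any of the 11 genes and limma called all 11 higher, where over all 17465 genes tested 14.2% had a higher post-molt group without overlap and 5.93% were called higher. As the stretch was chosen for this contrast, its counts, here and under any alternative, are fixed by the choice and nothing is read from them. Its median log2 fold change was 8.74 on the log2(FPKM + 1) scale. The median ratio of mean FPKM was 1445, with the 3 genes without pre-molt fragments set at the floor of 3 fragments.

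Post-molt levels within the stretch spanned from 8.30 FPKM in CM024108.1.89 to 22747 FPKM in CM024108.1.102. From high to low the order of the means was CM024108.1.102, CM024108.1.103, CM024108.1.99, CM024108.1.90, CM024108.1.96, CM024108.1.98, CM024108.1.100, CM024108.1.101, CM024108.1.97, CM024108.1.92 and CM024108.1.89. CM024108.1.102 exceeded CM024108.1.103 by a ratio of means of 1.77, and CM024108.1.103 exceeded CM024108.1.99 by a ratio of 8.0, in both cases without overlap between the libraries. CM024108.1.90 and CM024108.1.96 did not overlap either, at 970 ± 98.4 and 887 ± 11.04 FPKM (SD, n = 3). This order depends on the assigned lengths of 705 and 816 bases. By fragments CM024108.1.90 had 1344, 776 and 746 in replicates 1 to 3, against 1287, 867 and 834 for CM024108.1.96. CM024108.1.99 and CM024108.1.90, CM024108.1.96 and CM024108.1.98, and CM024108.1.98 and CM024108.1.100 changed places between libraries, so that their order was not resolved. From CM024108.1.100 down each gene exceeded the next in every library, although the ranges across libraries overlapped.

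The post-molt crabs did not differ alike across the stretch, and this spread within a stage was not used to choose it. In CM024108.1.90, CM024108.1.96, CM024108.1.102 and CM024108.1.103 the highest post-molt library was 1.02 to 1.46 times the lowest. In the other 7 genes it was 3.87 to 10.1 times the lowest. Replicate 3 was the low library in all 7, among them the 5 neighbours from CM024108.1.97 to CM024108.1.101, which summed to 3453, 5276 and 1184 FPKM in replicates 1 to 3. These 5 genes, CM024108.1.92 and CM024108.1.103 had the same order of libraries, with replicate 2 highest and replicate 3 lowest. That order was also found in 16.8% of the genes called higher outside this chromosome and in 20% of the tested genes in the rest of it. CM024108.1.96 and CM024108.1.102, which flank the run of 5, showed little of the drop in replicate 3. CM024108.1.102 was at 23165 FPKM in replicate 3, above the 18306 FPKM of replicate 1. For CM024108.1.97, CM024108.1.92 and CM024108.1.89 the low values rested on 12, 4 and 6 fragments, whereas CM024108.1.98, CM024108.1.99, CM024108.1.100 and CM024108.1.101 had 156, 307, 181 and 36 fragments in replicate 3. With libraries scaled to a common FPKM sum the ratios were 1.27 to 1.62 in the former 4 genes and 4.24 to 11.1 in the latter 7. The division into 4 and 7 genes was made after the values were seen and was not tested.

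**Figure D3:**
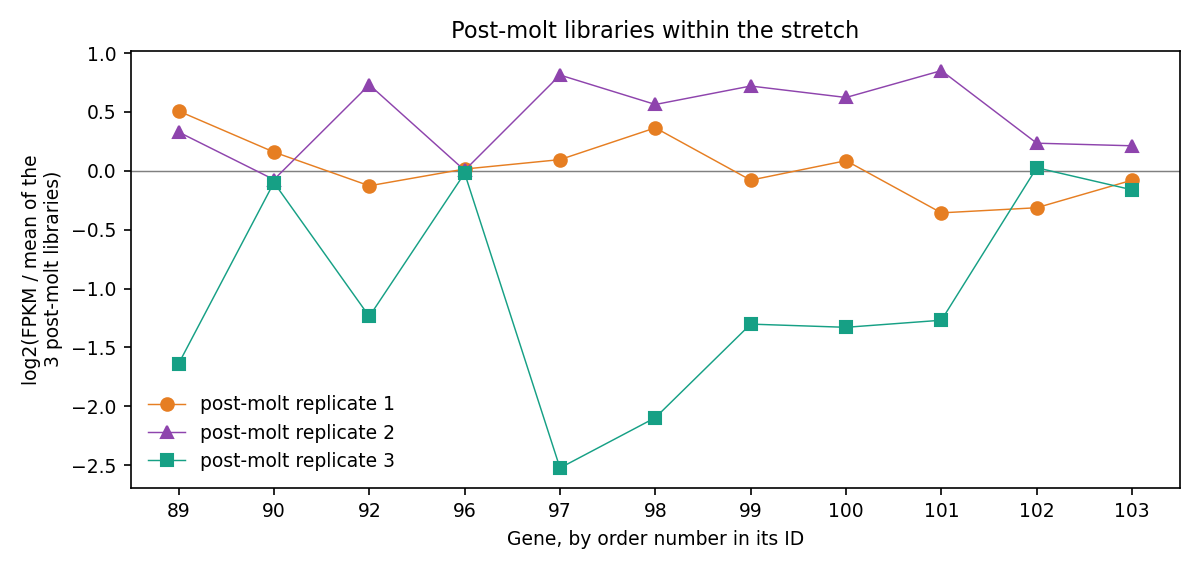
For each gene of the stretch, the FPKM of each post-molt library divided by the mean of the 3 post-molt libraries, on a log2 scale. The 3 libraries lie close together in CM024108.1.90, CM024108.1.96, CM024108.1.102 and CM024108.1.103, while replicate 3 drops in the other 7 genes, down to 13.3 FPKM in CM024108.1.97 where replicate 2 had 135 FPKM.

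A low replicate 3 was frequent elsewhere too: it was the lowest post-molt library in 48.9% of the 1020 genes called higher outside this chromosome, and in 10 of the 11 genes here. The size of the spread can be set beside that of comparably abundant genes called higher, but the sets are not alike. A wide post-molt spread makes a call harder to reach unless the fold change is very large, as in the stretch. The genes called higher may therefore hold fewer wide spreads, which was not tested. Among the 286 such genes with a mean of 100 FPKM or more after the molt, 39 (13.6%) had a highest library over 3 times the lowest, and the median ratio was 1.87. In the stretch 4 of the 8 genes at this level passed that ratio. Of the 7 tested genes in the rest of the chromosome at this level, called or not, 0 passed it, with a median ratio of 1.48. Whether the overall difference of replicate 3 has a part in this spread was not tested. Without replicate 3 the median log2 fold change of the stretch was 9.30.

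Gene models of the stretch were short. Their median length was 594 bases, from 201 to 1925, against 1227 bases in the rest of the chromosome and 1178 bases in all genes called higher. CM024108.1.89 alone was longer than the median of the rest of the chromosome. Lengths of all 11 were given in the deposited files.

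At the resolution of listed genes the edge of the stretch was abrupt on the high-numbered side and less so on the low-numbered side. There CM024108.1.89 had a post-molt mean of 8.30 FPKM, below the 37.3 FPKM of the listed gene before it. The post-molt level rose to 970 FPKM only at CM024108.1.90. On the low-numbered side the 3 order numbers before CM024108.1.89 were not analysed here, and the nearest listed gene was the joined model CM024108.1.84_85, with 41.4, 35.6 and 34.9 FPKM after the molt and 26.2, 24.02 and 20.3 FPKM before it. The groups did not overlap, but the difference did not pass the test (log2 fold change 0.65, SE 0.26, limma adjusted p = 0.2). CM024108.1.83, next to it, was called higher, at 5.43, 4.86 and 5.26 FPKM against 0.303, 0.0928 and 0.138 FPKM (log2 fold change 2.40, SE 0.31, limma adjusted p = 0.0016). Before the molt it had 4, 1 and 2 fragments, and its ratio of mean FPKM was 29.1. Its post-molt mean of 5.18 FPKM lay below that of every gene of the stretch. In post-molt replicate 3, however, its 5.26 FPKM was above the 2.67 FPKM of CM024108.1.89. CM024108.1.81 measured 14.4 ± 5.70 FPKM after the molt and 8.88 ± 2.73 FPKM before it, CM024108.1.80 measured 4.56 ± 1.39 and 4.63 ± 0.117 FPKM, and the joined model CM024108.1.69_70 measured 5.53 ± 1.97 and 8.94 ± 3.40 FPKM (SD, n = 3). None of these 3 was called.

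On the other side the change came between CM024108.1.103 and CM024108.1.105. CM024108.1.105 measured 3.85, 4.41 and 1.29 FPKM after the molt and 8.93, 3.58 and 9.12 FPKM before it, so that the groups overlapped and the lower post-molt mean did not pass the test (log2 fold change −0.98, SE 0.47, limma adjusted p = 0.28). From CM024108.1.103 to CM024108.1.105 the post-molt mean dropped from 12863 FPKM to 3.18 FPKM while the pre-molt mean went from 6.51 to 7.21 FPKM. The next 7 order numbers were not analysed here. CM024108.1.113 was at 11.7 ± 3.45 FPKM after the molt and 5.39 ± 1.07 FPKM before it (SD, n = 3), without overlap but not called (log2 fold change 0.97, limma adjusted p = 0.14). CM024108.1.115, CM024108.1.120 and CM024108.1.121 had nearly equal means in both stages, with log2 fold changes of −0.01, −0.23 and −0.08.

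The rest of the chromosome changed little in comparison. Of its 134 listed genes, 130 had a mean of 0.5 FPKM or more and were tested, and the 4 others (CM024108.1.65, CM024108.1.229, CM024108.1.249 and CM024108.1.303) were not. limma called 8, of which 5 were higher and 3 lower, or 6.15%, where 7.54% of all genes tested were called, 5.93% higher and 1.60% lower. Both stages were apart, without overlap between libraries, in 36 of the 130 (27.7%), 17 with post-molt higher and 19 with post-molt lower, where the shares over all genes tested were 26.7% in either direction, 14.2% higher and 12.5% lower. The median log2 fold change was −0.13, with quartiles of −0.56 and 0.34, beside a median of −0.09 over all genes tested. The median gene measured 5.83 FPKM after the molt and 6.69 FPKM before it. All these shares lay close to the background. With libraries scaled to a common FPKM sum the balance turned, to 3 genes called higher and 56 lower of these 130, beside 601 higher and 5889 lower over all genes tested. The count of 8 was 3 without pre-molt replicate 1, 4 without pre-molt replicate 3 and 5 without post-molt replicate 1, post-molt replicate 3 or pre-molt replicate 2.

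**Figure D4:**
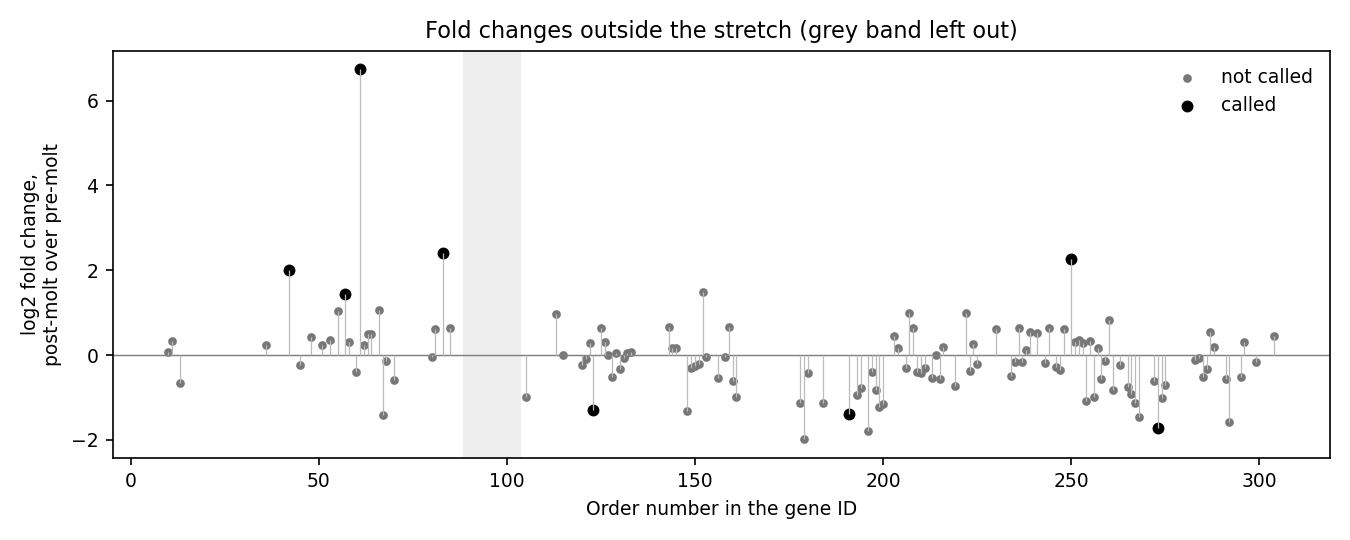
limma log2 fold change of log2(FPKM + 1), positive where post-molt is higher, for the 130 tested genes outside the stretch (grey band) against the order number of the gene, with called genes in black. Of the points, 106 lie between −1 and 1, and CM024108.1.61 stands far above the rest at 6.74.

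The largest change outside the stretch was in CM024108.1.61. It measured 403, 324 and 432 FPKM after the molt and 1.54, 3.77 and 2.86 FPKM before it (log2 fold change 6.74, SE 0.32, limma adjusted p = 2.5e-06). Its ratio of mean FPKM was 142, or 63.0 by pooled fragments per recovered total. The post-molt libraries held 1228 to 2253 fragments of it and the pre-molt libraries 22 to 45, so that CM024108.1.61 was low but clearly detected before the molt. Its listed neighbours CM024108.1.60, CM024108.1.62 and CM024108.1.63 were not called, with log2 fold changes of −0.39, 0.25 and 0.50. The rise at CM024108.1.61 was thus that of a single gene.

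The joined model CM024108.1.41_42 was the next in abundance among called genes, at 375, 289 and 200 FPKM after the molt and 59.5, 96.9 and 55.7 FPKM before it (log2 fold change 2.01, SE 0.34, limma adjusted p = 0.0074). It was not called without pre-molt replicate 1 (limma adjusted p = 0.052), nor with libraries scaled to a common FPKM sum (log2 fold change 0.69, limma adjusted p = 0.15, in a range from 1.7e-06 to 0.15 for all alternatives). CM024108.1.250 measured 8.93, 5.48 and 5.60 FPKM against 0.436, 0.890 and 0.397 FPKM (log2 fold change 2.27, SE 0.34, limma adjusted p = 0.0038). Among the called genes outside the stretch, CM024108.1.61 and CM024108.1.250 kept the call under all 16 alternatives, and CM024108.1.83 lost it only with a pseudocount of 5, where its log2 fold change was 0.98.

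CM024108.1.57 was the weakest of the genes called higher, at 14.97, 9.45 and 14.6 FPKM after the molt and 3.49, 4.56 and 4.22 FPKM before it (log2 fold change 1.44, SE 0.31, limma adjusted p = 0.025). The call was lost in 5 of the 6 fits that left out a library, all but the one without post-molt replicate 2, with limma adjusted p from 0.028 to 0.14, and with libraries scaled to a common FPKM sum (log2 fold change 0.25).

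Of the 3 genes called lower, none kept the call in all fits that left out a library. CM024108.1.191 measured 7.62, 7.48 and 7.10 FPKM after the molt and 22.9, 15.1 and 27.2 FPKM before it (log2 fold change −1.40, SE 0.31, limma adjusted p = 0.027). It was lost in 5 of 6 fits without a library, all but the one without pre-molt replicate 2, with limma adjusted p from 0.025 to 0.15. CM024108.1.273 had 1 post-molt fragment in all and 9, 11 and 28 pre-molt fragments, which gave 0.470, 0 and 0 FPKM against 1.65, 2.47 and 4.68 FPKM (log2 fold change −1.72, SE 0.40, limma adjusted p = 0.037). Its call ended in all 6 fits without a library, with limma adjusted p from 0.054 to 0.14. CM024108.1.123 was at 0 in every post-molt library and had 2 fragments in each pre-molt library, at 1.41, 1.73 and 1.28 FPKM (log2 fold change −1.30, limma adjusted p = 0.048). The pre-molt mean of 1.47 FPKM is below 2.31 FPKM, the post-molt level that a count of 0 allows, so no fold is given. The call of CM024108.1.123 ended in 5 of 6 fits without a library, all but the one without post-molt replicate 3, with limma adjusted p from 0.042 to 0.15, and with edgeR on the recovered fragments (adjusted p = 0.41).

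**Figure D5:**
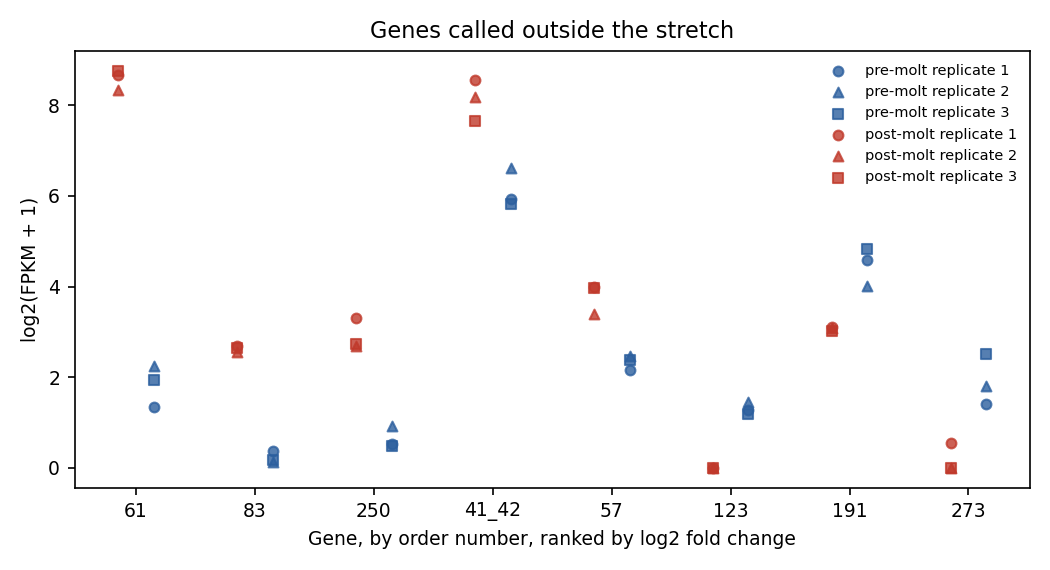
Each library's log2(FPKM + 1) for the 8 genes called outside the stretch, ranked by log2 fold change, with post-molt in red, pre-molt in blue and a marker shape for each replicate. The stages are far apart in CM024108.1.61, at 386 against 2.72 FPKM, and nearer in CM024108.1.57, CM024108.1.191 and CM024108.1.123.

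The most abundant gene outside the stretch did not pass the test. CM024108.1.203 measured 4923, 4516 and 3866 FPKM after the molt and 3294, 4158 and 2507 FPKM before it (log2 fold change 0.44, SE 0.31, limma adjusted p = 0.47), and the groups overlapped. Its direction turned with a common FPKM sum (log2 fold change −0.89, limma adjusted p = 0.024) and with quantile normalization (log2 fold change −0.86, limma adjusted p = 0.054). It held 62.1% ± 1.98 of the FPKM outside the stretch in post-molt and 61.0% ± 5.22 in pre-molt muscle (SD, n = 3). By FPKM CM024108.1.203 was thus the most abundant gene of the chromosome before the molt, and after the molt CM024108.1.102 and CM024108.1.103 were well above it. The length of CM024108.1.203, recovered as 288 bases, is also shorter than a read pair laid end to end, so that these shares depend strongly on it. By fragments it had 4279, 4406 and 3575 in pre-molt replicates 1 to 3, against 1814, 1458 and 2053 for CM024108.1.209. CM024108.1.207 measured 264, 183 and 271 FPKM after the molt and 112, 150 and 99.9 FPKM before it, without overlap but not called (log2 fold change 0.98, limma adjusted p = 0.089). CM024108.1.209 measured 152, 85.5 and 73.6 FPKM after the molt and 130, 128 and 134 FPKM before it, a wide range beside a narrow one (log2 fold change −0.40, limma adjusted p = 0.52).

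Other genes were steady. Among genes outside the stretch with a mean of 10 FPKM or more, the 5 with the smallest log2 fold changes were CM024108.1.214, CM024108.1.127, CM024108.1.115, CM024108.1.158 and CM024108.1.129, from −0.04 to 0.05. CM024108.1.129 measured 88.6, 70.6 and 57.4 FPKM after the molt and 71.9, 64.9 and 68.9 FPKM before it (log2 fold change 0.05, SE 0.27, limma adjusted p = 0.94). CM024108.1.127 and CM024108.1.129 belong to 9 consecutive listed genes, from CM024108.1.125 to CM024108.1.133, with means of 20.6 to 72.2 FPKM after and 13.2 to 71.1 FPKM before the molt, of which none was called. Such steadiness depends on the scaling: with libraries scaled to a common FPKM sum the median over all genes tested moved from −0.09 to −0.78, the log2 fold changes of the 5 steadiest genes to between −1.30 and −1.13, and limma called these 5 and 7 of the 9 consecutive genes lower. The stretch was higher after the molt under either scaling, with a median log2 fold change of 7.06 under the common sum.

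Genes of this chromosome that the study lists as changed in both expression and chromatin accessibility between neighbouring stages numbered 7, of which 6 were in the table and 1 was not analysed here. None of the 11 genes of the stretch was among them. All 6 are listed as lower in inter-molt than in post-molt muscle: CM024108.1.11, CM024108.1.41_42, CM024108.1.55, CM024108.1.57, CM024108.1.61 and CM024108.1.207. CM024108.1.55, CM024108.1.57 and CM024108.1.207 are also listed as higher at the molt than before it, and CM024108.1.41_42 as higher after the molt than at it. In the comparison made here CM024108.1.41_42, CM024108.1.57 and CM024108.1.61 were called higher in post-molt. CM024108.1.55 rested on 5 post-molt and 4 pre-molt fragments in all (log2 fold change 1.03, limma adjusted p = 0.51), and CM024108.1.11 measured 5.43 ± 1.26 and 4.10 ± 1.18 FPKM (SD, n = 3), which did not pass the test (log2 fold change 0.34, limma adjusted p = 0.61). The study chose these genes partly on the same libraries, so their direction is not independent evidence.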

How the data were processed

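Stage and replicate number came from the titles. By the study's methods and the submitters' notes, reads were mapped with HISAT2 2.0.5, and those with a unique position were assigned to genes by featureCounts 1.5.0-p3. No source used here says whether strand was used. The authors deposited FPKM for 18729 genes, each at 1.00 FPKM or above in some library. They also deposited a comparison of the stages for 1684 genes, which holds fold changes, p-values and a normalized signal (counts divided by a size factor). Of it only the signal and the gene lengths were used. FPKM columns carry another tissue prefix than the titles, but over 1684 genes each stood, given gene length, in a constant ratio to the signal of the library with its letter and number.

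Signal values were whole multiples of a step per library (100% within 0.001), and 100% of FPKM values then gave whole fragments. For genes without a known length, the smallest length that gave whole fragments was taken. Whole values in those genes follow from that choice and are no check of the recovery. The known lengths came out exactly for 98.7% of genes, and for 22 genes as a fraction of the true length. At 1000 bases a single fragment gave 0.568 to 0.856 FPKM after the molt and 0.202 to 0.272 FPKM before it. The authors' library sizes behind the FPKM were 28.0% to 34.4% of the recovered total after the molt and 63.3% to 81.9% before it.

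limma 3.58.1 (R 4.3.3) was fitted, with an intensity trend, to log2(FPKM + 1) of 17465 genes with a mean of 0.5 FPKM or more, with stage as the only term. A call needed a Benjamini-Hochberg adjusted p up to 0.05 over all genes tested and a log2 fold change of at least 1 in size. This scale understates the change of low genes. Ratios with exact 95% conditional intervals came from fragments pooled over a stage. edgeR 4.0.16 and DESeq2 1.42.0 on the recovered fragments, pseudocounts, filters, scalings, a replicate block and leaving out each library were alternatives. The recovery of lengths and fragments, the main limma fit and the edgeR fit were tested on simulated data. In the simulation for the fits, the library sizes behind the FPKM were the same share of the total in every library, unlike here. That simulation therefore says nothing of how the difference in library sizes between the stages affects the calls.

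The text names every listed gene of the stretch, the 5 listed genes on each side, up to 10 called genes in each direction elsewhere, the 5 most abundant, the 5 steadiest with a mean of 10 FPKM or more, and members of the study's lists. CM024108.1.60, CM024108.1.62, CM024108.1.63 and the genes of longer runs were added after their values were seen. Members and lists were chosen with earlier results of these data known. Marker genes of muscle and other tissues could not be looked up, as 0 gene names went beyond a prediction label.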

Additional observations from a re-analysis of the deposited data

How the results depend on the processing

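The stretch was chosen on this contrast, so its calls under the alternatives say nothing of stability. Its median log2 fold change was 11.07 with a pseudocount of 0.1, 6.73 with a pseudocount of 5, 7.06 with a common FPKM sum, 10.71 with edgeR and 10.74 with DESeq2, and 8.33 to 9.30 when a library was left out; its share of the chromosome was 65.4% by fragments, and the median ratio of its genes, 1445, was 559 by fragments per recovered total, which was tried after the data were seen. The rest of the chromosome had 4 calls with a pseudocount of 5, 59 with a common FPKM sum (70 on the whole chromosome) and 3 to 6 when a library was left out. Its median was −0.18 with a pseudocount of 0.1, −0.050 with a pseudocount of 5, −0.077 without a filter, −0.044 at a mean of 2 FPKM or more, −0.92 with a common FPKM sum, −0.23 with quantile normalization, −0.087 with edgeR, −0.080 with DESeq2 and −0.13 to −0.057 without a library. The common sum moves every gene by construction and turned CM024108.1.129 to a called fall (−1.24); for the others the cause was not tested. Counted over named genes and settings, the outcome, called or not, stayed the same in 543 cases. These include the genes of the stretch and genes not called in either fit, so that count says nothing of stability. A call was lost in 36 cases, all in genes called outside the stretch. CM024108.1.83 lost it in 1 of 16 alternatives, CM024108.1.41_42 in 2, CM024108.1.191 in 6 and CM024108.1.57 in 8. CM024108.1.273 lost it in 10 of 15 and CM024108.1.123 in 9 of 14. In 7 cases a call was gained, all with a common FPKM sum.

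Replicate numbers were not taken to pair crabs, since the deviations of libraries with a shared number correlated at −0.030, −0.034 and −0.051. With the replicate block 4 genes were called in the rest of the chromosome and 15 on the whole of it, and 1003 genes in all, of which 976 were shared with the fit without it. Low genes are limited by the shallower post-molt libraries.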

Other observations

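In a second region of the chromosome the libraries of a stage often ranked alike from gene to gene, on few post-molt fragments. The region was picked after the values were seen and was not tested. Of the 12 listed genes from CM024108.1.178 to CM024108.1.200, all 12 had a negative log2 fold change, with a median of −1.14, and only CM024108.1.191 was called. Their sum was 88.2, 184 and 59.0 FPKM in post-molt replicates 1 to 3 and 223, 137 and 288 FPKM in pre-molt replicates 1 to 3, so the highest post-molt library lay above the lowest pre-molt library. Post-molt replicate 2 was the highest of its stage in 10 of the 12 genes, against 27.7% of the 130 genes tested outside the stretch, which include these 12. These post-molt ranks rested on 0 to 23 fragments per gene and library. CM024108.1.180 had 2, 2 and 1 and CM024108.1.198 had 2, 3 and 1 in replicates 1 to 3. In CM024108.1.178, with 5, 4 and 2 fragments, replicate 2 was highest in FPKM with fewer fragments than replicate 1. Pre-molt replicate 2 was the lowest of its stage in 10 of the 12, against 41.5%, and pre-molt replicate 3 the highest in 10, against 40.8%. CM024108.1.194, for example, measured 18.0, 57.6 and 18.1 FPKM in post-molt libraries, on 6, 13 and 4 fragments. In pre-molt libraries it measured 48.1, 30.2 and 70.5 FPKM, on 41, 21 and 66 fragments. With a common FPKM sum, which moved the median over all genes tested from −0.09 to −0.78, limma called all 12 lower, with a median of −2.04. With quantile normalization 2 were called and with edgeR 1, with all 12 below 0 in both.

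The 8 listed genes from CM024108.1.265 to CM024108.1.275, picked in the same way, all had negative log2 fold changes too, with a median of −0.97, and CM024108.1.273 was called. With a common FPKM sum 7 were called lower. They had 0 to 8 post-molt fragments per gene and library. CM024108.1.150 and CM024108.1.151, which are next to each other, were both highest in post-molt replicate 3 and in pre-molt replicate 1 of their stage, at 60.4, 64.9 and 132.8 FPKM and 38.5, 36.9 and 84.3 FPKM after the molt and 153, 74.2 and 80.1 FPKM and 84.3, 38.9 and 58.0 FPKM before it.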
